A study of Mus musculus with 96 samples.

Results

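The cytosolic ribosomal protein genes were taken as every entry of the deposited expression files whose mouse symbol names a protein of the large or small subunit (Rpl or Rps with its number and letter) or is Rplp0, Rplp1, Rplp2 or Rpsa. Entries marked as pseudogenes (-ps) and the Rps6 kinase genes were left out. The rule found 85 of 24060 entries, made up of 42 large subunit genes, 31 small subunit genes, 3 genes of the P stalk, 8 paralogs with their own gene symbols, and Rpl22, which is described apart because it encodes the tagged protein. Fau and Gnb2l1 also encode proteins of the ribosome but have other symbols, so they fell outside the rule and are given only for comparison.

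All mice carried the same tag. An adeno-associated virus (RiboTag AAV) drove Rpl22 fused to a haemagglutinin epitope (Rpl22-HA) in astrocytes of the striatum for 3 weeks. From each mouse, RNA was taken from the cleared lysate (input, all cells of the tissue) and from the ribosomes precipitated with an antibody to the tag (IP), giving 96 libraries of 48 mice. There were 6 experiments of 4 treated and 4 control mice each. In the QA experiment, C57BL/6 mice received quinolinic acid, labelled 30 nM, or vehicle into the striatum 2 weeks before the tissue was taken, a lesion of medium spiny neurons. In the LPS experiment, lipopolysaccharide at 5 mg/kg or vehicle was given into the peritoneum 24 h before. In the Kir4.1 experiment, Kir4.1flox/flox mice received AAV5-GfaABC1D-Cre or AAV5-GfaABC1D-TdTomato, so that the potassium channel gene Kcnj10 was deleted where the astrocyte promoter GfaABC1D was active. The IP3R2 experiment compared Itpr2-/- mice with Itpr2+/+ littermates. In the rM3Ds experiment, mice that expressed a Gs-coupled designer receptor from the GfaABC1D promoter received clozapine N-oxide (CNO) at 1 mg/kg, or vehicle, 2 h before. In the hM3Dq experiment, mice with a Gq-coupled designer receptor received CNO at 1 mg/kg or vehicle, with no time given, and the sources used here do not give the promoter. The receptor was present in the controls of both designer receptor experiments, and AAV5 in those of the Kir4.1 experiment.

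The cytosolic ribosome is a small subunit that reads the mRNA and a large subunit that joins amino acids, and each subunit holds one copy of nearly every one of its proteins. The P stalk (Rplp0 with Rplp1 and Rplp2) stands out from the large subunit and recruits the translation factors that hydrolyse GTP. In mammals the mRNAs of these proteins carry a 5′ terminal oligopyrimidine (TOP) tract, through which mTOR and Larp1 set whether they are translated or held off ribosomes, so that their output can change with no change in the amount of mRNA. RiboTag IP measures transcripts bound to tagged ribosomes, so a level in the IP depends both on how much of an mRNA the astrocytes hold and on how much of it is on ribosomes.

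The sequence around the transcription start of 12 members is shown, since the TOP tract begins at the start itself. The results below turn on 11 of these genes, and Rpl28 is shown for the pyrimidine run at its start. The lines run from 40 bases before to 30 bases from the annotated start (RefSeq, GRCm38.p6), 5′ to 3′ on the gene's own strand, and capitals mark matches on either strand to CCGGAAG (a core bound by ETS factors), AAGATGGC (bound by YY1), TATAAA (the TATA box), CTCTTTC (a pyrimidine run) and CTTTCC (a shorter one).
Rplp0, chr5:115559427-115559496, plus strand: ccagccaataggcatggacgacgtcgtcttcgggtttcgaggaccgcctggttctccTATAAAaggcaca
Rplp2, chr7:141447611-141447680, plus strand: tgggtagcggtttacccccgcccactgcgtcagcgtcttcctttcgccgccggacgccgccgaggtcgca
Rpl10, chrX:74270776-74270845, plus strand: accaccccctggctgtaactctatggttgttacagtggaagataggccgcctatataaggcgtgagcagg
Rpl28, chr7:4792925-4792994, plus strand: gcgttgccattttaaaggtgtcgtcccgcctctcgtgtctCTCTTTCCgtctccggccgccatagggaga
Rps4x, chrX:102189362-102189431, minus strand: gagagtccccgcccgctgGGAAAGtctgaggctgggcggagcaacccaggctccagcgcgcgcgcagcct
Rps12, chr10:23787180-23787249, minus strand: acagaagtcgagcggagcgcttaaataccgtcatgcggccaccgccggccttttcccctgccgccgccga
Rps13, chr7:116334161-116334230, minus strand: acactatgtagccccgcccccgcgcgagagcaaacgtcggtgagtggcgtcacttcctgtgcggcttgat
Rps21, chr2:180257339-180257408, plus strand: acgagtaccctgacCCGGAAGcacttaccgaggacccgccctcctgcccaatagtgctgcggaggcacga
Rps27l, chr9:66946046-66946115, plus strand: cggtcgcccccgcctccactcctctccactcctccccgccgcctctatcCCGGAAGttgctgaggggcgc
Rpl7l1, chr17:46782627-46782696, minus strand: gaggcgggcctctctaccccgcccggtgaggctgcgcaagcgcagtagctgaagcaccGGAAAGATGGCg
Rpl22, chr4:152325686-152325755, plus strand: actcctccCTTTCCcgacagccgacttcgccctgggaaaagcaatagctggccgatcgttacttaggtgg
Rpl22l1, chr3:28805468-28805537, plus strand: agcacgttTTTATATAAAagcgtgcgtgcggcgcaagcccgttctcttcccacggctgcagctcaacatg
The starts of Rpl28, Rplp2 and Rps21 lie inside unbroken runs of pyrimidines. No such run begins at the annotated start of the others. The start base is a purine in Rplp0, Rpl10, Rps4x, Rps12, Rps27l, Rpl22 and Rpl22l1, and a lone pyrimidine in Rps13 and Rpl7l1. In Rpl22l1 a TATAAA box stands ahead of the start, whereas in Rplp0 TATAAA lies after the annotated start. Whether the annotated starts are those used in these cells was not tested, so a tract at another start would be missed. Windows of 300 bases were available for 64 of the 85 members. Of these, 26 (40.62%) held CCGGAAG, against 9.93% of the windows of 27025 genes, and 18 (28.12%) held CTCTTTC, against 9.28%. CTTTCC, which overlaps CTCTTTC in the run CTCTTTCC, was in 34 (53.12%), against 29.32%. AAGATGGC was in 6 (9.38%), against 3.19%, and TATAAA in 7 (10.94%), against 15.67%. These are letter matches, and no binding was measured here.

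Values are FPKM (fragments per kilobase of gene, scaled to the mapped reads), which are per length and so allow levels of different genes to be set side by side. Log2 differences were fitted with limma on FPKM rescaled between libraries with a pseudocount of 0.1, so they need not equal the ratio of the FPKM, and they understate the change of low genes. A gene was called when its Benjamini-Hochberg adjusted p over all genes tested was under 0.05. Each library rested on reads recovered from the FPKM, 42.5 M to 82.3 M reads in the IP and 14.7 M to 51.0 M in the input, and the 2 arms of an experiment overlapped in depth. The 10 astrocyte markers were all higher in IP than input in the 24 control mice (summed level 4248 to 7691 FPKM in IP and 827 to 989 in input), while the input carried the markers of all cells, with medium spiny neuron markers at 3197 to 4403 FPKM. Medium spiny neuron markers were also present in control IP (1048 to 2248 FPKM), as were those of oligodendrocytes (558 to 1857). The oligodendrocyte sum was close to that of the input, with a median of 1406 FPKM in IP and 1520 in input (1316 to 1868). The IP libraries were therefore enriched in astrocyte transcripts but also held those of other cells. The label striatal astrocytes does not apply to the input. Kcnj10 fell in Cre IP (142 to 164 FPKM in the TdTomato mice, 27.9 to 36.1 in the Cre mice; log2 difference −2.21, limma adjusted p = 1.86e-07). The level of Itpr2 did not follow the label, at 10.4 to 14.5 FPKM in IP of the mice labelled Itpr2-/- and 9.92 to 13.7 in their littermates. In such bulk samples, fewer cells of a type and less RNA per cell cannot be told apart.

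In control input, medians over the 24 mice ran from below 1 FPKM to 792 FPKM for Rplp1, an acidic protein of the stalk. The order below Rplp1 depended on the experiments pooled. In the 8 control inputs whose labels start with 2016, Rplp1 (917 FPKM) was followed by Rps15 (467), Rpl41 (466), Rps29 (439) and Rps12 (408), and in the 16 that start with 2018, Rplp1 (652) by Rps15 (338), Rpl4 (312.8), Rpl41 (291) and Rpl32 (282). Of the 85 genes, 67 had a mean of at least 100 FPKM in the former and 19 in the latter. The lowest were 3 paralogs. Rpl10l, a retrocopy used in male germ cells, was at 0 in all 96 libraries, Rpl39l reached 0.337 FPKM in a control input, and Rpl3l, known from muscle, ranged from 0.109 to 0.524 FPKM. These 3 were not tested, which leaves 81 members in most comparisons.

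The level of many members differed between experiments. The library labels carry a number starting with 2016 in the LPS and hM3Dq experiments and with 2018 in the others. Between the 8 control inputs labelled 2016 and the 16 labelled 2018, 26 of 81 members were at least 10-fold higher in the 2016 group (32.1%), as were 50 of 13252 genes in all (0.377%). Members made up 26 of those 50 genes. Rps29 averaged 439 FPKM in the 2016 and 3.29 in the 2018 libraries, Rpl17 400 and 4.22, Rpl9 331 and 5.13, Rps12 408 and 11.9, and Rpl10 208 and 4.16. By contrast, Rpl4 averaged 305.2 and 312.8 FPKM, Rpl8 275 and 271, Rps27l 23.3 and 30.1, and Rpl22 105 and 103. Of the 81 members, 32 were 2- to 10-fold higher in the 2016 group and 23 lay under 2-fold. In the IP 25 of 81 members were past 10-fold, 23 of them among the 26 of the input. The annotation lists a median of 3.5 entries named as pseudogenes (-ps) for the 26 members (0 to 24). For the other 59 the median was 1 (0 to 15), so the groups overlap. How reads shared with such entries were counted is not given in the sources used here, and their part in the gap was not tested. Treated and control mice were therefore compared within an experiment. IP was compared with input with the mouse as a block, in a fit pooled over the control mice of all 6 experiments. The mean FPKM given with that fit mix 2016 and 2018 libraries, so they depend on the experiments pooled. Some levels are also set side by side across experiments below, without a test. Members of this set are uncertain in level in the 2018 libraries. Others varied among the 2018 experiments too. Control IP means of Rpl3 were 0.421 FPKM in the IP3R2 experiment and 19.5, 22.5 and 20.1 in QA, Kir4.1 and rM3Ds, those of Rps18 were 0.556 and 13.5 to 13.7, and Rps2 read 0.365, 14.6, 13.0 and 13.9 FPKM in the 4 IP3R2 control IP libraries.

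**Figure D1:**
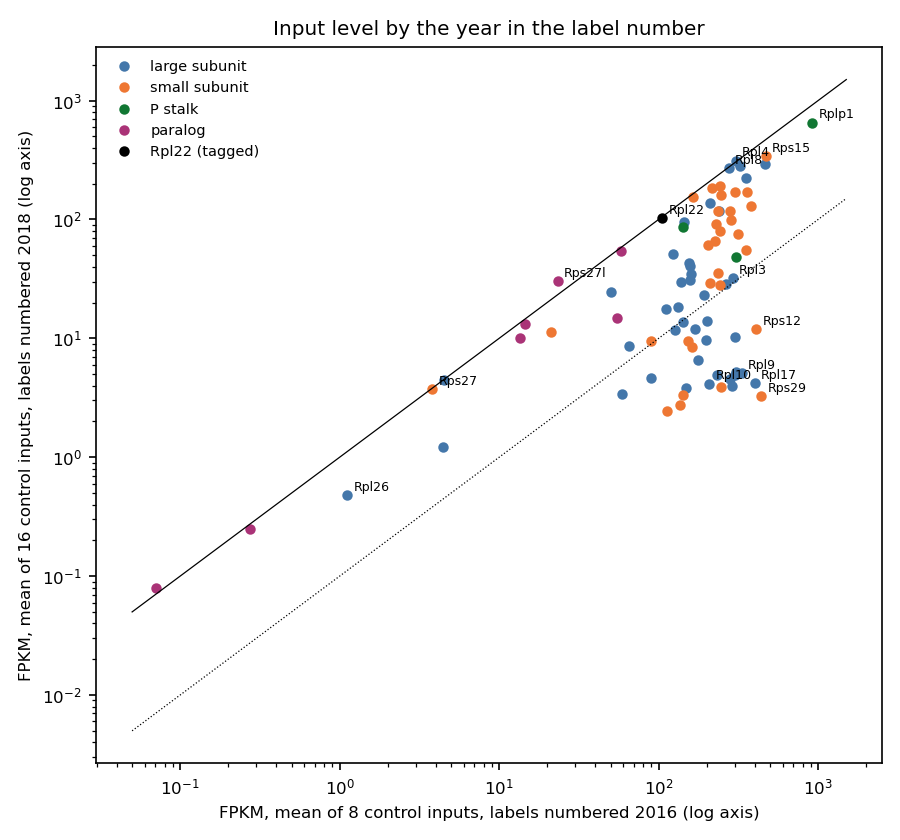
Mean FPKM of each member in the 8 control inputs labelled 2016 (x axis, log scale) against the 16 labelled 2018 (y axis, log scale); members at 0 are not drawn. The solid line marks equality and the dotted line a 10-fold lower level; Rpl4 and Rpl8 lie close to the line of equality, while Rps29, Rpl17 and Rpl9 are among the 26 members past 10-fold in input.

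Set against the input of the same mice, the precipitated ribosomes held less mRNA of nearly every ribosomal protein gene. Over the 24 control mice, 77 of 81 members were lower in IP and 4 were higher, with a median log2 difference of −1.17, in a comparison where 44.3% of the genes tested were called lower and 44.3% higher and the median gene stood at −0.01. Members are short, 64 of the 81 being under 1000 bases, and of 1750 other genes under that length 59.77% were lower and 20.34% higher, with a median of −0.56. Gene length thus moves with this result, and its part was not tested.

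Rpl22, whose transcript includes that of the tagged copy, went the other way. It averaged 104 ± 41.8 FPKM in input and 484 ± 288 in IP (SD, n = 24), a log2 difference of 2.33 ± 0.079 (SE; limma adjusted p = 6.62e-21). The difference was 1.62 in the rM3Ds controls, the lowest of the 6 experiments, and 2.90 in the LPS controls, the highest. The files do not separate the endogenous transcript from the viral one.

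All 3 stalk genes were lower in IP. Rplp1 fell from 740 ± 211 to 147 ± 26.2 FPKM, with no overlap between the input and the IP libraries (log2 difference −2.05 ± 0.057, adjusted p = 6.72e-23). Its partner Rplp2 averaged 135 FPKM in input and 54.8 in IP (−0.99), and Rplp0, the base of the stalk, 105 and 49.6 (−0.81). The stalk genes thus differed among themselves by over 1 log2 unit, although their proteins form one complex.

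Of the large subunit genes, 41 of 42 were lower, with a median of −1.13. Rpl3, which reaches towards the peptidyl transferase centre, averaged 119 FPKM in input and 53.0 in IP (−0.998), a mean over experiments that ranged in IP from 0.421 FPKM in IP3R2 to 145 in LPS. Differences were smaller for Rpl4 (310 and 177 FPKM, −0.57), Rpl8 (272 and 173 FPKM, −0.41) and Rpl18 (48.8 and 37.1 FPKM, −0.13), which were chosen after their values were seen. Rpl26, which sits at the exit tunnel, was the only large subunit gene called higher (0.60), at a mean of 0.691 FPKM in input and 0.859 in IP. That level lies near the filter, and its difference per experiment ran from 0.09 in the LPS to 1.15 in the QA controls.

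All 31 small subunit genes were lower in IP, with a median of −1.30. Rps12, whose fly ortholog takes part in cell competition in Drosophila, had the lowest value of all members (144 and 22.9 FPKM, −2.09 ± 0.083, adjusted p = 2.85e-19). Rps21, Rps28 and Rps29 followed at −1.80, −1.74 and −1.74. Rpsa, also known as the laminin receptor, averaged 156 FPKM in input and 55.4 in IP (−1.23), Rps4x 134 and 64.2 (−0.76), and Rps6, the target of S6 kinase, 36.0 and 17.5 (−0.58). Fau and Gnb2l1, outside the symbol rule, were lower too, at −0.75 and −0.67.

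Of the 5 paralogs tested, 3 were higher and 2 lower. Rps27l, a p53-induced relative of Rps27, averaged 27.8 FPKM in input and 54.1 in IP (1.23 ± 0.087, adjusted p = 1.7e-13), and was higher in each experiment, from 0.62 in the rM3Ds to 1.74 in the Kir4.1 controls. Rps4l averaged 11.2 and 13.6 FPKM (0.49), with 0.22 to 0.63 per experiment. Rpl7l1 averaged 13.6 and 13.1 FPKM (0.19 ± 0.022, adjusted p = 5.63e-09), but this sign turned without scaling between libraries (−0.05). Rpl36al was lower by a small amount (55.4 and 38.7 FPKM, −0.27), and Rpl22l1, the paralog that Rpl22 represses in mouse, was among the lowest members (28.2 and 5.56 FPKM, −1.99).

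**Figure D2:**
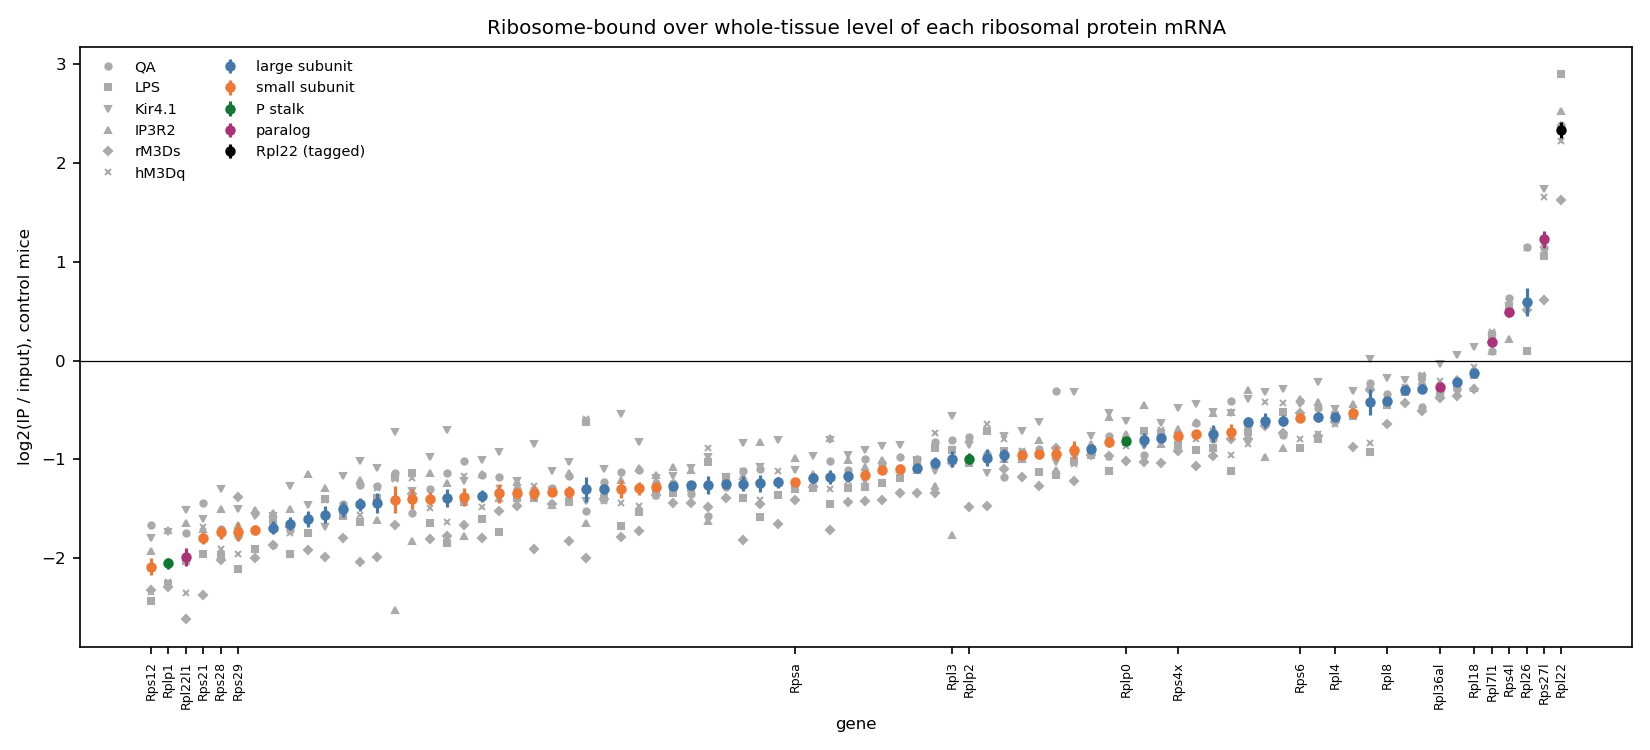
Log2 difference of IP over input for each tested member, ordered by value and coloured by class, with the members described in this comparison labelled. Coloured points are the fit over 24 control mice with SE bars and gray markers the 6 experiments alone; nearly all members lie below 0, and Rpl22 and Rps27l lie above it in every experiment.

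Other genes of translation were counted in the same comparison. Of 17 other TOP mRNAs and elongation factors, 12 were lower and 4 higher (median −0.24). Of 35 genes of ribosome biogenesis, 19 were higher and 9 lower (0.11), and of 77 mitochondrial ribosomal protein genes 36 were higher and 27 lower (0.04). The members' median was lower than that of each of these lists.

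The median was negative in each experiment taken alone, at −1.03 in the QA, −1.18 in the LPS, −0.86 in the Kir4.1, −1.09 in the IP3R2, −1.39 in the rM3Ds and −1.12 in the hM3Dq controls. Between 70 members (Kir4.1) and 77 (LPS) were called lower, against 36.9% and 38.4% of all genes in the same comparisons, and 2 to 4 higher, against 36.7% (IP3R2) to 44.7% (LPS) of all genes. By limma's F test, the IP to input ratio of 53 of 81 members (65.43%) differed among the 6 experiments. Of all genes, 54% did so, a share near that of the members.

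The number of members called differed between the 6 treatments. In the IP, 73 members rose with CNO in hM3Dq mice and 76 with LPS, 28 fell after deletion of Kir4.1, QA moved some up and others down, and neither rM3Ds nor IP3R2 gave a call. In the input, 56 members were higher with QA, where 33% of all genes were higher too, against 0% to 15.9% in the other inputs. The shares of all genes called stand beside each count below. LPS and hM3Dq were the experiments labelled 2016, so label year and treatment cannot be told apart across these counts. Of the 26 members past 10-fold between label years, 25 rose in LPS IP and 24 in hM3Dq IP. In QA IP 2 rose and 2 fell, and in Kir4.1 IP 1 rose and 1 fell. Of the other 55, 51 rose in LPS IP, 49 in hM3Dq IP and 13 in QA IP, where 8 fell. In Kir4.1 IP 1 of the 55 rose and 27 fell. As a share of summed FPKM, the 84 members other than Rpl22 took 1.53% to 1.86% of the IP in hM3Dq vehicle mice and 2.09% to 2.49% after CNO, with no overlap. In LPS IP the share was 1.95% to 2.11% with vehicle and 2.18% to 2.46% with LPS, and in Kir4.1 IP 0.753% to 0.859% with TdTomato and 0.680% to 0.714% with Cre. In QA input it was 1.61% to 1.76% with vehicle and 2.20% to 2.35% with QA.

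**Figure D3:**
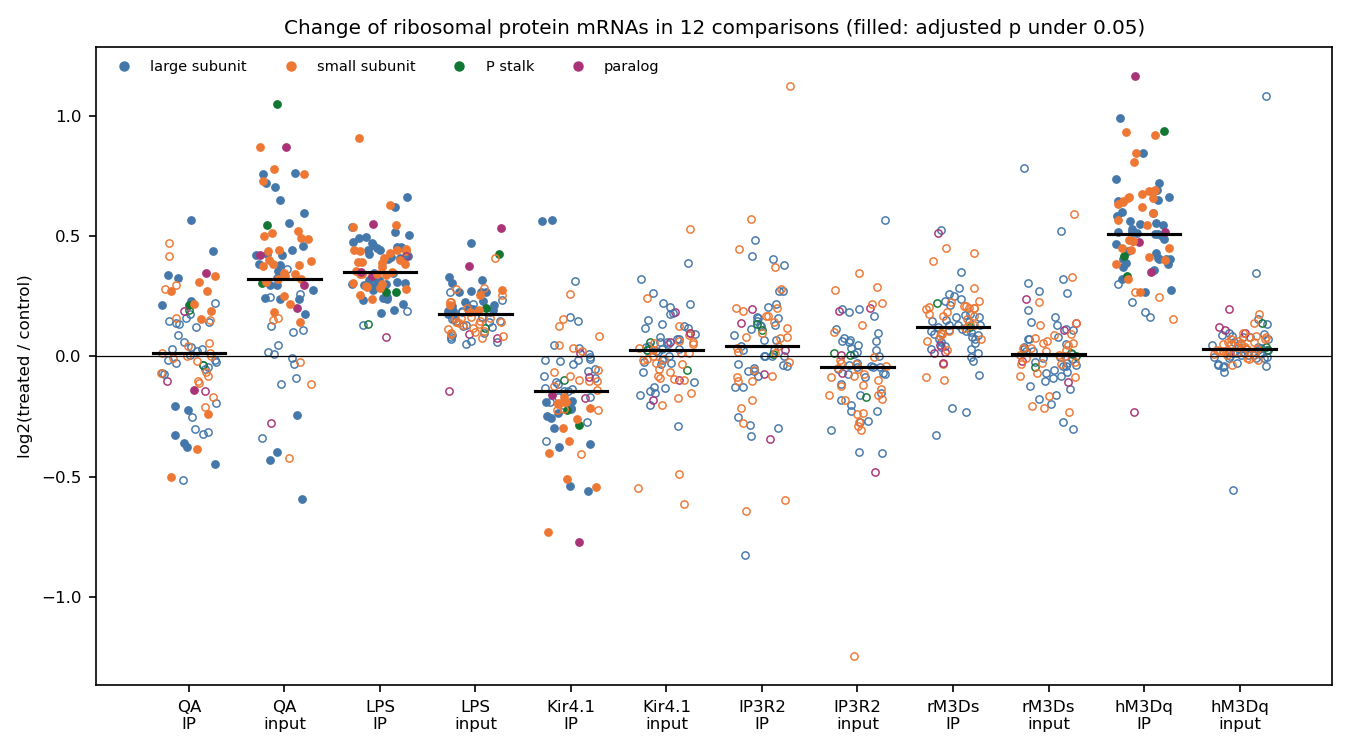
Log2 difference of treated over control for each tested member in the IP and the input of the 6 experiments; filled points have a limma adjusted p under 0.05 and the black line is the median. The hM3Dq and LPS IP medians lie at 0.51 and 0.35, the QA input median at 0.32, the LPS input median at 0.18, the Kir4.1 IP median at −0.14 and the rM3Ds IP median at 0.12.

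**Figure D4:**
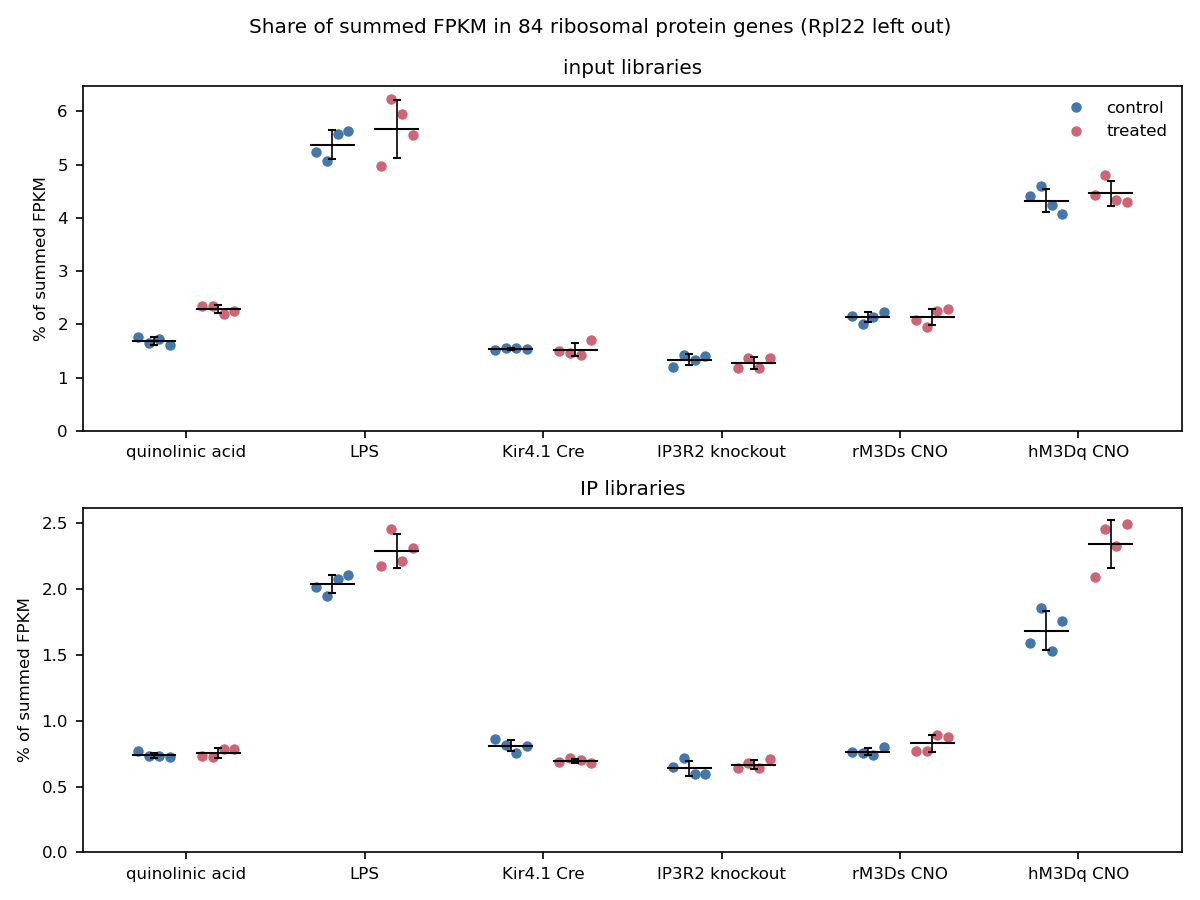
Share of summed FPKM (percent) taken by the 84 members other than Rpl22 in each library, by experiment, fraction and arm; the line is the mean of 4 mice and the bars the SD. The arms do not overlap in hM3Dq IP, LPS IP, Kir4.1 IP and QA input.

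CNO in mice with the Gq receptor was followed by higher levels of most members in IP. No mice without a designer receptor received CNO, so effects of CNO itself and of the receptor cannot be told apart. In hM3Dq IP, 73 of 81 members were higher after CNO and 0 lower, with a median log2 difference of 0.51 and 80 positive values, where 24.7% of 13563 genes were higher, 21.2% lower, and the median gene stood at 0.00. For 57 members every CNO library lay above every vehicle library, against 20.98% of all genes. At an unadjusted p under 0.05 limma gave 74 higher and 0 lower, and voom on recovered reads 70 higher and 0 lower. In the input of the same mice 0 members passed in either direction (median 0.03; 2.58% of genes higher, 1.16% lower), 3 were higher at an unadjusted p under 0.05, and voom gave 0.

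All 3 stalk genes rose in hM3Dq IP. Rplp0 read 53.6, 61.7, 54.3 and 62.7 FPKM in the vehicle mice and 90.4, 116, 110 and 118 in the CNO mice (0.94 ± 0.087, adjusted p = 1.78e-05). All CNO values lay above all vehicle values. Its input values were 127 to 133 FPKM with vehicle and 125 to 175 with CNO, which overlap. Rplp1 rose by 0.42 and Rplp2 by 0.33, the latter with overlapping groups.

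Among the large subunit genes 38 of 42 rose. Rpl10, which is added late in assembly of the subunit, read 41.8, 50, 40.0 and 53.0 FPKM with vehicle and 79.4, 95.98, 85.3 and 95.9 with CNO (0.99 ± 0.10, adjusted p = 3.04e-05). The lowest CNO library was above the highest vehicle library. Rpl10 is among the 26 members past 10-fold between the 2016 and 2018 labels in input. Of those 26 members 24 rose here, as did 49 of the other 55, which include members 2- to 10-fold apart. Among the 4 not called, Rpl26 (1.21 and 1.30 FPKM) and Rpl39 (22.4 and 26.7 FPKM) had log2 differences of 0.16 and 0.30.

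Among the small subunit genes 28 of 31 rose. Rps4x, an X-linked gene, read 89.8, 104, 84.7 and 101 FPKM with vehicle and 153, 182, 178 and 187 with CNO (0.92 ± 0.082, adjusted p = 1.34e-05), and in input 201 to 219 and 206 to 243 FPKM. The IP groups stood apart and the input groups overlapped. Rps12 read 55.4, 79.5, 59.0 and 66.4 FPKM with vehicle and 102, 128, 113 and 139 with CNO (0.93, adjusted p = 0.000146). Rps13 read 37.3, 41.2, 31.01 and 37.5 and then 52.1, 71.7, 66.1 and 68.0 FPKM (0.85, adjusted p = 0.000131). Neither overlapped. The start windows of Rps4x, Rps12, Rps13, Rpl10 and Rplp0 printed above share none of the 5 motifs among all of them.

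Of the paralogs, 4 of 5 rose and Rps27l did not. Rpl22l1 had the highest rise of all members, from 2.35, 3.30, 1.85 and 3.15 FPKM to 4.36, 6.77, 6.45 and 5.86 (1.17 ± 0.19, adjusted p = 0.000754), with no overlap. Rps27l read 37.6 to 54.9 FPKM with vehicle and 34.4 to 44.4 with CNO (−0.23, adjusted p = 0.162), and was the only member with a negative value. Rpl22 itself was 183 ± 19.1 and 201 ± 45.0 FPKM (SD, n = 4; 0.15, adjusted p = 0.438).

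The change in IP exceeded that in input for most of them. Tested directly (the interaction of treatment and fraction, with the mouse as a block), 59 of 81 members had a larger rise in IP and 0 a smaller one (median 0.43), against 12.1% of genes larger and 9.25% smaller. The interaction was 1.01 for Rpl22l1, 0.90 for Rps12, 0.82 for Rps4x and for Rpl10, 0.76 for Rplp0 and 0.74 for Rps13, and −0.07 for Rpl22. Unadjusted, 69 were higher and 0 lower, and by voom 64 and 0.

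Genes around the ribosome moved in the same IP libraries. Of 35 biogenesis genes 34 rose (median 0.73), among them Gnl3, a nucleolar GTPase (6.29 to 15.3 FPKM, 1.31), and Heatr1, of the small subunit processome (4.06 to 9.41 FPKM, 1.23). Of 17 TOP and elongation genes 15 rose, with Pabpc1, the poly(A) binding protein, at 26.6 and 51.9 FPKM (1.00), and Tpt1 at 100 and 154 FPKM (0.66). Fau (0.30) and Gnb2l1 (0.80) rose as well. Myc, which drives ribosome biogenesis genes, rose from 1.26 to 11.8 FPKM (3.20) and Eif4ebp1, an inhibitor of cap-dependent initiation, from 7.40 to 26.0 FPKM (1.84), whereas Ddit4 (−0.56) and Pdcd4 (−0.39), inhibitors of mTOR and of the initiation helicase, fell. The mitochondrial ribosomal protein genes split, 14 higher and 17 lower of 77 (median 0.02). Astrocyte markers moved beside these changes, with 6 of 10 lower (sum 6911 to 7691 FPKM with vehicle, 4621 to 6197 with CNO). Other genes under 1000 bases had a median of −0.17, opposite in sign to the members. The part of the marker change in the members' rise was not tested.

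Most members were higher with LPS as well. In LPS IP, 76 of 81 were higher and 0 lower (median 0.35, all 81 positive), against 18.9% of 13641 genes higher and 17.9% lower and a median gene at −0.03. Unadjusted limma gave 80 higher and 0 lower, voom 75 and 0. Without scaling between libraries the median was 0.21 and that of all genes moved by −0.14, and with the spread estimated over all 48 IP libraries 48 members were called. Without LPS replicate 2, whose value of Rplp0 stood apart from the other LPS mice, 78 were called.

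All 31 small subunit genes rose. Rps14, deleted in a human myelodysplastic syndrome, read 117, 114, 115 and 122 FPKM with vehicle and 147, 156, 153 and 166 with LPS (0.55 ± 0.062, adjusted p = 0.00118). Every LPS library lay above every vehicle library. Rps27 had the highest fitted value (0.91, adjusted p = 0.0267) at 0.431 to 1.18 FPKM with vehicle and 1.37 to 1.56 with LPS, near the filter.

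Of the large subunit genes 40 of 42 rose. Rpl37 read 41.7, 38.1, 39.7 and 40.9 FPKM with vehicle and 59.2, 52.1, 56.5 and 56.2 with LPS (0.62 ± 0.086, adjusted p = 0.00253). Rpl41, the smallest protein of the ribosome, was 165 to 175 FPKM and then 210 to 229 (0.49, adjusted p = 0.000748). Neither overlapped. Rpl26, at 1.43 and 2.09 FPKM, rose by 0.66.

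The stalk was less uniform. Rplp2 rose by 0.27 (126 and 137 FPKM). Rplp0 also passed (0.27, adjusted p = 0.0429), but its LPS values were 71.1, 103, 68.2 and 70.5 FPKM against 68.0 to 74.7 with vehicle, so 3 of the 4 lay within the vehicle range and replicate 2 above it. Rplp1 did not pass (169 and 170 FPKM, 0.14, adjusted p = 0.0909). Among the paralogs, Rpl22l1 read 15.9, 18.2, 18.6 and 20.9 FPKM and then 28.1, 20.8, 23.9 and 25.4 (0.55, adjusted p = 0.0189), with overlap at a single library. Rps27l rose by 0.35 (48.2 and 55.9 FPKM, adjusted p = 0.0184), and Rpl22 did not pass (994 ± 131 and 1244 ± 394 FPKM, 0.42, adjusted p = 0.181).

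In LPS input 27 members were higher and 0 lower (median 0.18, with 15.9% of genes higher and 15.1% lower), and 44 were higher and 0 lower unadjusted, with 26 and 0 by voom. This number rested on single libraries. It was 5, 8, 7 and 17 without vehicle replicate 1, 2, 3 or 4, 8 and 17 without LPS replicate 3 or 4, 32 higher and 1 lower without LPS replicate 2, 3 without scaling and 13 with the shared spread. Rplp0 was the clearest, at 149, 139, 156 and 165 FPKM with vehicle and 173, 218, 210 and 179 with LPS (0.42, adjusted p = 0.00491), without overlap. Rps4l (14.8 and 20.6 FPKM, 0.53), Rpl7a (246 and 293 FPKM, 0.32) and Rpl18 (135 and 162 FPKM, 0.33) also rose. Rpl22 averaged 163 and 200 FPKM (0.36, adjusted p = 0.141).

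For 14 members the rise was larger in IP than in input, among them Rpl37 (0.56, adjusted p = 0.0261), Rpl22l1 (0.46), Rpl37a (0.40), Rps16 (0.38) and Rps12 (0.35), and for 0 it was smaller. In all, 5.41% of genes had a larger and 3.03% a smaller rise in IP, and unadjusted 43 members were higher and 0 lower, with 14 and 0 by voom. The number was 39 higher and 1 lower without LPS mouse 2, 2 to 4 without any of the other 7 mice, and 5 without scaling.

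Beside these genes, 11 of 17 TOP and elongation genes rose in LPS IP (median 0.31), among them Btf3, of the nascent chain complex (57.2 and 78.0 FPKM, 0.58), and Eif3e (38.6 and 48.6 FPKM, 0.47). Of the 35 biogenesis genes 7 rose and 3 fell (0.08). Eif6, which keeps free large subunits from joining, rose from 23.7 to 53.9 FPKM (1.27), and Heatr1 and Dkc1 fell (−0.34 and −0.25). Myc (2.42) and Ddit4 (1.12), an inhibitor of mTOR, both rose. Oligodendrocyte markers (5 of 8 higher; sum 905 to 1523 FPKM with vehicle, 1260 to 2048 with LPS) and astrocyte markers (5 of 10 higher) moved with the members in IP, and their part was not tested.

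After quinolinic acid, ribosomal protein mRNA was higher in the tissue and, on balance, little changed on the tagged ribosomes. In QA input 56 of 80 members were higher and 4 lower (median 0.32), against 33% of 14831 genes higher and 41.3% lower and a median gene at −0.08. For 59 members all QA libraries lay above all vehicle libraries, against 39.14% of genes. Without scaling the median was 0.49. Called from the level of Xist against Y-linked genes, the vehicle mice were 4 females and the QA mice 1 female and 3 males. With sex as a covariate, 42 members were higher and 3 lower (median 0.33).

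All 3 stalk genes rose. Rplp0 read 106, 93.1, 102 and 86.9 FPKM with vehicle and 242, 233, 205 and 220 with QA (1.05 ± 0.072, adjusted p = 7.29e-07). Rplp1 rose by 0.31 (783 to 977 FPKM with vehicle, 1198 to 1248 with QA), and Rplp2 from 40.6 to 66.8 FPKM (0.55). Of the small subunit genes 26 of 31 rose. Rps20, in the head of the small subunit, read 97.4, 104, 99.2 and 94.6 FPKM with vehicle and 206, 224, 182 and 203 with QA (0.87, adjusted p = 1.49e-06). The groups did not overlap.

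The large subunit genes were divided, 23 higher and 4 lower of 41. Rpl18 rose from 15.98 to 30.4 FPKM (0.76). Rpl31, at the exit tunnel, fell from 13.1 to 9.80 FPKM (−0.59 ± 0.086, adjusted p = 0.000144), as did Rpl15 (21.4 to 18.3 FPKM, −0.40), Rpl36a (−0.43) and Rpl27a (−0.25), the last pair with overlapping groups. Of the 26 members past 10-fold between label years, 8 rose and 2 fell, and of the other 54, 48 rose and 2 fell. The other 54 include members 2- to 10-fold apart between label years. Rps27l rose from 23.8 ± 3.28 to 48.7 ± 2.59 FPKM (0.87, adjusted p = 1.09e-05). Rpl22 read 152, 128, 121 and 116 FPKM with vehicle and 237, 160, 349 and 236 with QA (0.71, adjusted p = 0.00729), without overlap and with a wide spread among the QA mice.

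In QA IP 15 members were higher and 10 lower (median 0.01), below the share of genes in either direction (34.8% and 39.1%). With sex as a covariate, which the vehicle group (4 females) and the QA group (1 female and 3 males) do not share evenly, 4 were higher and 7 lower. Rpl41 read 124, 119, 117 and 115 FPKM with vehicle and 163, 163, 191 and 215 with QA (0.57, adjusted p = 0.000426), and Rpl39 rose from 13.8 to 19.4 FPKM (0.44), both without overlap. Rps28 and Rpl23 rose by 0.33 each and Rps27l by 0.34. In the other direction, Rps15a read 5.77, 5.30, 5.73 and 5.69 FPKM and then 4.30, 3.88, 4.16 and 3.97 (−0.50, adjusted p = 4.26e-05), without overlap. Rpl31 (−0.45), Rps23, of the decoding centre (−0.39), Rpl5, a carrier of 5S rRNA (−0.38, overlapping), Rpl15 (−0.36) and Rpl27a (−0.33) fell too. Rpl31, Rpl15 and Rpl27a thus fell in both fractions. Rpl22 averaged 585 ± 107 and 932 ± 354 FPKM (0.57, adjusted p = 0.068).

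The difference between the fractions was tested as well. For 32 members the QA change was lower in IP than in input and for 4 it was higher (median −0.22), against 20.6% of genes lower and 29.4% higher. Low values were those of Rplp0 (−0.73, adjusted p = 0.000359), Rps23 (−0.73) and Rps15a (−0.72), among others, and the higher were Rps29 (0.68), Rpl23a (0.60), Rpl36a (0.54) and Rpl41 (0.29). In QA IP Rps29 averaged 0.798 FPKM with vehicle and 1.15 with QA, near the filter. Rps29, Rpl23a, Rpl36a and Rps23 belong to the 26 members past 10-fold between label years. The number lower was 51 without QA mouse 4 and 49 without scaling. The number higher was 0 without QA mouse 2 or 4 and 1 without vehicle mouse 1, 2 or 4. The median was −0.45 without QA mouse 4, −0.37 without QA mouse 2 and −0.44 without scaling.

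Cell type markers changed strongly in the same libraries. In QA input all 10 microglia markers rose (sum 812 to 955 FPKM with vehicle, 4483 to 6491 with QA), all 8 oligodendrocyte markers rose, 8 of 10 astrocyte markers rose and 8 of 9 medium spiny neuron markers fell (4101 to 4213 FPKM, then 1678 to 1860). In QA IP the microglia markers also rose (34.7 to 40.8 FPKM, then 78.2 to 125), as did the oligodendrocyte markers (1648 to 1857, then 3375 to 4727), and all 9 medium spiny neuron markers fell (2142 to 2248, then 338 to 503.6). Their part in the members' changes was not tested. Of the TOP and elongation genes 13 rose and 2 fell in QA input, with Pabpc1 at 0.84, and Gnb2l1, whose protein Rack1 is a scaffold on the small subunit, rose from 121 to 247 FPKM (0.86). Of the biogenesis genes 4 rose and 18 fell, and of the mitochondrial ribosomal protein genes 2 rose and 48 fell. Myc (1.33) and Eif4ebp1 (1.80) rose.

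A part of the family was lower in IP of the Cre mice than of the TdTomato mice in the Kir4.1 experiment. Of 81 members 28 were lower and 2 higher (median −0.14), against 15.4% of 13537 genes lower and 14.1% higher and a median gene at 0.01. For 32 members every Cre library lay below every TdTomato library, against 20.34% of genes. With the spread estimated over all IP libraries 8 were lower. Other genes under 1000 bases were lower in 22.62% of cases (median −0.07).

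Rps27l had the lowest value, from 79.5, 80.9, 82.6 and 84.3 FPKM to 42.3, 48.2, 49.0 and 46.7 (−0.77 ± 0.048, adjusted p = 4.01e-06). The TdTomato values lay within 5 FPKM of each other and far above the Cre values. Their mean of 81.8 FPKM was also above the control IP means of QA (45.0), IP3R2 (46.1) and rM3Ds (57.2). The Cre mean, 46.6 FPKM, lay near those of the QA and IP3R2 controls. Why the TdTomato level was high was not tested. Of the small subunit genes 12 of 31 fell, among them Rps19, mutated in Diamond-Blackfan anaemia, from 26.8, 26.5, 23.3 and 28.4 FPKM to 17.5, 17.7, 17.9 and 16.6 (−0.54 ± 0.058, adjusted p = 0.000119), and Rps14, from 42.8 to 29.2 FPKM (−0.51, adjusted p = 1.01e-05). Neither overlapped.

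Of the large subunit genes 12 of 42 fell. Rpl18 read 15.2, 14.5, 14.9 and 16.7 FPKM with TdTomato and 9.81, 10.5, 9.36 and 10.6 with Cre (−0.56 ± 0.060, adjusted p = 0.000118), without overlap. Rpl30 fell from 2.51 to 1.66 FPKM (−0.54). Of the stalk, Rplp1 (137 and 109 FPKM, −0.29) and Rplp0 (46.9 and 39.0 FPKM, −0.22) fell, and Rplp2 did not pass (20.2 and 18.2 FPKM, −0.10). Rpl10 was called higher, at 0.842 and 1.23 FPKM with overlapping groups (0.56, adjusted p = 0.0463), and the number of higher members was 0 or 1 without any single library. Of the 26 members past 10-fold between label years, 1 rose and 1 fell.

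Rpl22 fell too in Kir4.1 IP, at 452, 311, 416 and 442 FPKM with TdTomato and 234, 306, 341 and 209 with Cre (−0.54, adjusted p = 0.0276), with overlap. A change in the amount of tagged transcript thus moves with the members' change, and its part was not tested. In Kir4.1 input Rpl22 averaged 91.7 and 71.4 FPKM (−0.32, adjusted p = 0.452), and 0 of 80 members passed by limma in either direction, with 2 higher and 3 lower unadjusted and 0 by voom (0.00706% of genes higher, 0.339% lower). The interaction passed only for Rps27l (−0.59, adjusted p = 0.0347; 1.91% of genes lower, 0.549% higher), with 25 members lower unadjusted. The number was 3 without Cre mouse 2, and 0 without TdTomato mouse 2 or 4 or Cre mouse 1 or 4.

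Mitochondrial ribosomal protein genes fell beside the members in Kir4.1 IP (37 lower, 1 higher of 77, median −0.14), while TOP and elongation genes (5 lower, 1 higher of 17) and biogenesis genes (7 lower, 1 higher of 35) mostly did not pass. Eif4ebp1 fell from 11.02 to 3.87 FPKM (−1.45) and Myc from 1.91 to 1.18 (−0.60). All 8 oligodendrocyte markers fell (sum 1174 to 1502 FPKM, then 840 to 1023), 4 of 10 microglia markers fell, and 8 of 9 medium spiny neuron markers rose (1462 to 1547, then 1787 to 1844). The part of these markers was not tested.

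CNO in mice with the Gs receptor and the labelled Itpr2 genotype gave no call among the members. In rM3Ds IP 71 of 81 members were positive with a median of 0.12. The libraries of an arm differed, however. The members' median deviation from the mean of all 8 was 0.18 in CNO replicates 3 and 4 and 0.08 in vehicle replicate 4, and −0.11 to −0.06 in the other 5, CNO replicates 1 and 2 among them. Replicates 1 and 2 of each arm were females and 3 and 4 males. The libraries above 0 were thus all of males, while vehicle replicate 3, also a male, stood at −0.11. With sex as a covariate 1 member was called higher. Of the members, 0 passed by limma (3.29% of genes higher, 1.29% lower), with 5 higher and 1 lower unadjusted and 0 by voom. In rM3Ds input the median was 0.01 with 0 passing (0.577% and 0.0209% of genes), 1 higher and 1 lower unadjusted and 0 by voom. For IP3R2, 0 members passed in IP (0% of genes in either direction; 8 higher and 2 lower unadjusted; 0 by voom) and 0 in input (0% higher, 0.00709% lower; 3 and 7 unadjusted; 0 by voom). The interactions gave 0 in both experiments by limma (1.65% of genes higher and 0.454% lower for rM3Ds, 0% for IP3R2), with 17 and 11 members higher and 0 and 1 lower unadjusted, and voom gave 2 higher for rM3Ds. Rpl22 in IP was 228 ± 40.5 and 227 ± 20.2 FPKM in the rM3Ds arms and 510 ± 151 and 456 ± 81.7 in the IP3R2 arms. A p that misses the threshold does not show that these levels were equal.

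The paralogs Rps27l and Rpl22l1 were followed across the study. Rps27l rose with QA in both fractions (0.34 in IP and 0.87 in input) and with LPS in both (0.35 and 0.37). It did not pass in hM3Dq IP, where 73 other members rose. In Kir4.1 IP it was lower with Cre than with TdTomato, whose level was above that of the QA, IP3R2 and rM3Ds controls. Rpl22l1 rose in hM3Dq IP and LPS IP with the subunit genes and did not pass in Kir4.1 IP (2.95 and 2.55 FPKM, −0.17, adjusted p = 0.327). Its control input level ranged from 8.97 FPKM in the QA and 9.50 in the IP3R2 experiment to 31.4 in rM3Ds and 92.0 in LPS, while Rps27l averaged 23.3 FPKM in the control inputs labelled 2016 and 30.1 in those labelled 2018.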

How the data were processed

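RNA of 48 mice was sequenced as 96 libraries, an IP and an input from each, on a HiSeq4000 from a stranded ribosomal depletion kit (the labels also say polyA RNA, which was not settled). Per the submitters' processing notes, reads were mapped to mm10 with STAR and counted with HTSeq. Versions and the counting rule for shared reads are not given in the sources used here. The deposited FPKM are the authors' values, 24060 entries per library, of which 21500 were above 0 in some library.

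From there, libraries were scaled by trimmed means (30% of ratios and 5% of levels trimmed), log2(FPKM + 0.1) was fitted with limma 3.58.1 in R 4.3.3 (trend on), and a gene was tested where 4 or more libraries of the comparison reached 0.5 FPKM. Treated and control mice were compared per experiment and fraction, and IP with input in the 24 control mice with the mouse as a block. The interaction of treatment and fraction also had the mouse as a block. Whole reads were recovered from the FPKM (99.614% of values whole within 0.001 reads) for depth and for voom as an alternative. The fit was tested on simulated data. Sex was called in each library from Xist against Y-linked genes, and IP and input gave the same call in all 48 mice. By this call the LPS and hM3Dq mice were all males. Each Kir4.1 arm had 1 female and 3 males. In the IP3R2 experiment the controls were 3 females and 1 male, and the knockout mice 4 females. Python 3.11.15, numpy 2.4.6, pandas 2.3.3 and matplotlib 3.10.9 prepared values and figures. Start windows are RefSeq sequences of GRCm38.p6.

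The members and lists were chosen with earlier results of these data known. The text names Rpl22, the 6 largest called rises and falls of each comparison at 1 FPKM or more, the stalk, the paralogs, Rpsa, Rps6, Rpl3 and Rps4x, and the 2 largest called changes of other lists. Members named beyond that, and Gnb2l1, Myc and Eif4ebp1 where not among the 2, were chosen after their values were seen. Alternatives were other scalings, no scaling, no filter, a pseudocount of 1, voom, the spread of all libraries of a fraction, sex as a covariate, the replicate number as a block, single experiments and leaving out each mouse. Mice of 1 group are separate animals. P-values cover the spread between them. Some named results are not reported here.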

Additional observations from a re-analysis of the deposited data

Results flagged for a closer look

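For 4 of the 126 groups of 4 libraries examined (named members, and the members' share of summed FPKM), one library lay far from the other 3; chance gives about 1 in 20 such groups. These were Rps15a at 5.30 FPKM and Rpl31 at 3.72 FPKM in a QA vehicle IP library, Rpl15 at 19.5 FPKM in a QA input library, and Rpl10 at 1.51 FPKM in a Cre IP library.

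The treatment effect differed between IP and input, by limma's test of the interaction, for members of the QA experiment (4 higher in IP and 32 lower), for 14 in the LPS experiment (all higher), for 59 in the hM3Dq experiment (all higher) and for 1, Rps27l, in the Kir4.1 experiment (lower). The IP to input ratio of 53 members differed among the 6 experiments by limma's F test, a share of 65.43% against 54% of all genes.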

How the results depend on the processing

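Of the summary values under alternatives, 773 counted as the same and 79 moved. A count was the same within a set ratio of the main count. A median was the same when its shift was smaller than the SD between replicates, whatever its sign. Without single libraries, for example, the QA IP median ran from −0.017 to 0.0437 and counted as the same. Of those of named genes, 1352 counted as the same, 174 kept the direction but lost the call, 6 gained it and 1 reversed. The same covers values that kept direction and call, and changes of sign with no call in either fit. The 1 that reversed was Rpl7l1 in IP over input, at −0.0499 without scaling. The cause of a change was not tested. Without scaling, lower members in QA input were 2 (median 0.4905), the LPS IP median was 0.2133, LPS input had 3 higher, Kir4.1 IP 0 higher, the IP over input median was −1.4136, the QA interaction had 0 higher and 49 lower (−0.4374) and the LPS interaction 5 higher. All-gene medians moved with it by 0.165 in QA input, −0.136 in LPS IP, −0.229 in IP over input and −0.220 in the QA interaction. With median-ratio scaling, the QA input median was 0.3715, and the QA interaction had 0 higher (−0.3329). With the spread of all 48 libraries of a fraction, 6 were lower in QA IP, 48 higher in LPS IP, 13 higher in LPS input, 1 higher and 8 lower in Kir4.1 IP, 1 higher in Kir4.1 input and 2 higher in IP3R2 IP. With sex as a covariate, QA IP had 4 higher (median −0.0658) and rM3Ds IP 1 higher. With no filter, Kir4.1 IP had 0 higher, the QA interaction 2 higher, the LPS interaction 7 higher and the Kir4.1 interaction 0 lower. With voom, Kir4.1 IP had 0 higher, and the interactions 1 higher for QA, 7 lower for Kir4.1 and 2 higher for rM3Ds. With a pseudocount of 1, the Kir4.1 interaction had 1 higher and 3 lower. In single experiments, IP over input had 2 higher in IP3R2, and medians of −0.8604 in Kir4.1 and −1.3949 in rM3Ds.

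Without single replicates, LPS input had 5 to 40 members higher and 0 to 1 lower, Kir4.1 IP 0 to 1 higher, rM3Ds IP 0 to 1 higher, hM3Dq IP 0 to 1 lower and hM3Dq input 0 to 1 higher. The interactions had 0 to 3 higher and 27 to 51 lower for QA (medians −0.4489 to −0.1887), 2 to 39 higher and 0 to 1 lower for LPS, 0 to 3 lower for Kir4.1, 0 to 1 higher for rM3Ds and 0 to 1 lower for hM3Dq.

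Mice that share a replicate number are not said to be paired, and in no comparison did every same-numbered pair of mice correlate above 0.1 in its deviations, though all 4 pairs were positive in Kir4.1 IP (0.068 to 0.318) and 3 of 4 exceeded 0.1 in rM3Ds IP (to 0.532) and rM3Ds input (to 0.381). With the replicate number as a block, 13 members were higher and 9 lower in QA IP, 56 and 4 in QA input, 70 higher in LPS IP, 21 higher in LPS input, 1 higher and 31 lower in Kir4.1 IP and 75 higher in hM3Dq IP.

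Depth limits members under 1 FPKM, such as Rpl39l and Rpl3l, which were not tested.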
